A study of Mus musculus with 9 samples.

Results

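The mRNAs of the cytosolic ribosomal proteins were followed in single-cell libraries of 9 mouse livers. The genes were taken by name: every feature called Rpl or Rps followed by digits and at most one lower-case letter, together with Rpsa and the stalk genes Rplp0, Rplp1 and Rplp2. This gave 81 of 26388 features, of which 32 belong to the small subunit (Rpsa included), 46 to the large subunit and 3 to its stalk. The rule uses names and no measured level, but it was set with earlier results of these data known. Genes such as Fau and Rps3a1, which also encode proteins of the cytosolic ribosome, have names outside this pattern and were not counted.

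Each library came from the liver of 1 wild-type male C57BL/6 mouse aged 8 weeks, injected into a vein with 1 of 3 agents. Mice 1, 4 and 7 received PBS, mice 2, 5 and 8 AAVrh.10Null, and mice 3, 6 and 9 AAVrh.10mCherry, which gives 3 livers per group. AAVrh.10 is a serotype of adeno-associated virus used to carry genes into tissues, and mCherry is a red fluorescent protein. The vector dose, the promoter and the time from injection to collection are not given in the sources used here. Drop-seq captures polyadenylated RNA of single cells on barcoded beads in droplets, and each captured molecule is counted once as a unique molecular identifier (UMI) near the 3′ end of its transcript.

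The small subunit of the ribosome reads the messenger RNA and the large subunit joins the amino acids, and most of their proteins are needed in equal number in each ribosome. In mammals the mRNAs of these proteins typically begin with a cytosine followed by a run of pyrimidines, the terminal oligopyrimidine (TOP) motif, through which the mTOR pathway adjusts their translation together. In the liver most RNA comes from hepatocytes, which make albumin and other plasma proteins, while endothelial cells, Kupffer cells (the resident macrophages) and lymphocytes are smaller populations.

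A pyrimidine run is a TOP motif only where the mRNA begins with it. The sequences around the transcription start show where such runs lie in genes on which the results turn. Each is a 30-base window, 15 bases either side of the RefSeq start, in GRCm38.p6, written 5′ to 3′ on the strand of the gene. Capitals mark the longest run of a C followed by at least 4 C or T. The paralogs Rps27 (chr3:90213634-90213663, minus strand) and Rps27l (chr9:66946071-66946100, plus strand, the first of its listed starts) moved apart in T and NK cell marker barcodes, where Rps15a (chr7:118116133-118116162, minus strand) was raised most. Rps28 (chr17:33824548-33824577, minus strand) and Rpl38 (chr11:114668565-114668594, plus strand) varied widely between livers. Rps9 (chr7:3704026-3704055, plus strand) and Rps6 (chr4:86857353-86857382, minus strand) had the smallest p-values of these genes in the comparisons of AAVrh.10Null with PBS and with AAVrh.10mCherry. Rpl10a (chr17:28328456-28328485, plus strand, the first of its listed starts) was the only gene tested that did not pass as lower in Malat1-rich barcodes.
Rps27: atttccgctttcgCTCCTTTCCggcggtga
Rps27l: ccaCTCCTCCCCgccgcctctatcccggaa
Rps15a: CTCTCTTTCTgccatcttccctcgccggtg
Rps28: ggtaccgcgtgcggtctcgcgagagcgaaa
Rpl38: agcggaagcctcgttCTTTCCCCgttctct
Rps9: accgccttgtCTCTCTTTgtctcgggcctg
Rps6: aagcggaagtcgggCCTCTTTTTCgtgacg
Rpl10a: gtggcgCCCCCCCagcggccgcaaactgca

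RefSeq start sites were matched by symbol for 59 of the 81 genes. Such a run was present in a window of 40 of the 59 (67.8%), against 40.3% of the 27025 genes in the same table. The base at an annotated start was itself a C followed by at least 4 C or T in 13 of the 59 (22.0%), against 3.01% of all genes, whether or not the run reached further upstream. Rps15a, Rps27, Rpl38 and Rps6 were among the 13. Of these 4, the capitals begin at the start only in Rpl38: in Rps27 and Rps6 they begin upstream and span it, and in Rps15a they mark another run. Rps27l, Rpl10a and Rps9 were not among the 13. In Rps27l and Rpl10a the capitals end upstream of the printed start, outside the transcript. In Rps9 they span the start, but its base is a T. Only the strand of the gene was searched. A match describes letters and not a site in use, and no match says only that these letters are not in this window.

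Of 48000 barcodes, 44898 with at least 200 detected genes were kept. Mouse 7 (PBS) stood apart with 550 of 3600 barcodes and 291338 UMIs, while the other livers held 4234127 to 11220147 UMIs. Hepatocyte markers made up 11.7 to 17.2% of UMIs in the 9 livers. The mCherry transcript was at 1797 to 7979 CPM (UMIs of a gene per 1000000 UMIs of a liver) in the AAVrh.10mCherry livers and at 0 to 24.3 in the other 6. Malat1, a nuclear RNA, held 3% or more of the UMIs in 4611 barcodes (1.60 to 23.0% of the barcodes of a liver), called Malat1-rich below. Barcodes were shared by 29 of the 36 pairs of livers, at most 6 per pair, and doublets were not removed. In summed UMIs, fewer cells of a type and less RNA per cell cannot be told apart. The p-values of the group comparisons rest on the spread between mice. Those of tests within livers rest on how the within-liver difference varies from mouse to mouse.

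Of the 81 genes, 77 were listed in all 9 files and 77 passed the filter on low counts. A mean of at least 100 CPM was reached by 74 genes. Rpl29 (82.3), Rpl13a (37.3) and Rps4l (31.7) lay between 3 and 100, and Rpl24, Rpl6l, Rpl3l and Rpl39l lay under 3. These 3′ tag counts are not scaled to length, and near-identical pseudogenes can take reads from a gene. Features named as pseudogenes of these genes held 0.0179 to 0.0838% of the UMIs of a liver.

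Small subunit genes held 0.852 to 1.56% of the UMIs of a liver, large subunit genes 0.913 to 1.71% and the stalk genes 0.115 to 0.237%. The ratio of large to small subunit UMIs lay between 1.05 and 1.15 in all 9 livers, a narrow range beside that of the totals. Rps14 (781 ± 163 CPM, SD, n = 9 livers) and Rps2 (776 ± 140), both of the small subunit, had the highest means, and their difference was smaller than their spread. Rps9 (668) and Rps18 (553) were also among the highest of the small subunit. In the large subunit the highest means were Rpl41 (686), Rpl13 (664), Rpl4 (634), Rpl32 (550.2) and Rpl14 (521). The 10 most abundant genes together gave 25.5% of the summed level.

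Among the stalk genes, whose products recruit translation factors to the large subunit, Rplp1 (695 ± 215 CPM) had a higher mean than Rplp0 (409 ± 93.5) and Rplp2 (362 ± 128). Rpsa, a small subunit protein also known as the laminin receptor, was at 295 ± 88.7. Rps27l (503 ± 117) was above its paralog Rps27 (337 ± 210.0) in 7 of 9 livers, with mice 6 and 7 the exceptions. Rps4l (31.7 ± 9.54) was below Rps4x (166 ± 54.0) in mean, Rpl3l was at 0 to 0.353 beside Rpl3 at 340 ± 81.7, and Rpl39l was listed in 1 file only.

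The first question was whether the vectors went with another total level. After PBS the summed share was 2.20% of UMIs in mouse 1, 3.50% in mouse 4 and 3.08% in mouse 7. After AAVrh.10Null it was 1.97% in mouse 2, 1.89% in mouse 5 and 2.53% in mouse 8. After AAVrh.10mCherry it was 2.17% in mouse 3, 3.32% in mouse 6 and 2.54% in mouse 9. The lowest values were those of AAVrh.10Null mice 2 and 5 and the highest that of PBS mouse 4, and each group overlapped the others. Kept barcodes of each liver were also split by UMIs into 4 sets of like size. In mouse 7 the share was 3.93, 3.90 and 3.73% in the shallower sets (median 324 to 420 UMIs) and 2.25% in the deepest (median 798). The next widest range was that of mouse 6, from 3.04 to 3.60%. The PBS mean thus includes a liver whose share depended on depth.

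The mean share was 2.93 ± 0.666% (SD, n = 3) after PBS, 2.13 ± 0.347% after AAVrh.10Null and 2.68 ± 0.585% after AAVrh.10mCherry. The difference from PBS was -0.799 percentage points for AAVrh.10Null and -0.251 for AAVrh.10mCherry. The AAVrh.10mCherry mean lay 0.548 percentage points above that of AAVrh.10Null. Without Malat1-rich barcodes the shares were 2.24, 3.53 and 3.43% in PBS mice 1, 4 and 7. They were 2.14, 1.91 and 2.70% in AAVrh.10Null mice 2, 5 and 8, and 2.24, 3.46 and 2.58% in AAVrh.10mCherry mice 3, 6 and 9. The groups still overlapped, and the differences in the same order were -0.812, -0.305 and 0.507 percentage points. The sum over these genes was not tested. AAVrh.10mCherry minus PBS turned to 0.0357 percentage points with barcodes of at least 500 genes, to 0.0363 without mouse 4 and to 0.00105 without mouse 3.

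**Figure D1:**
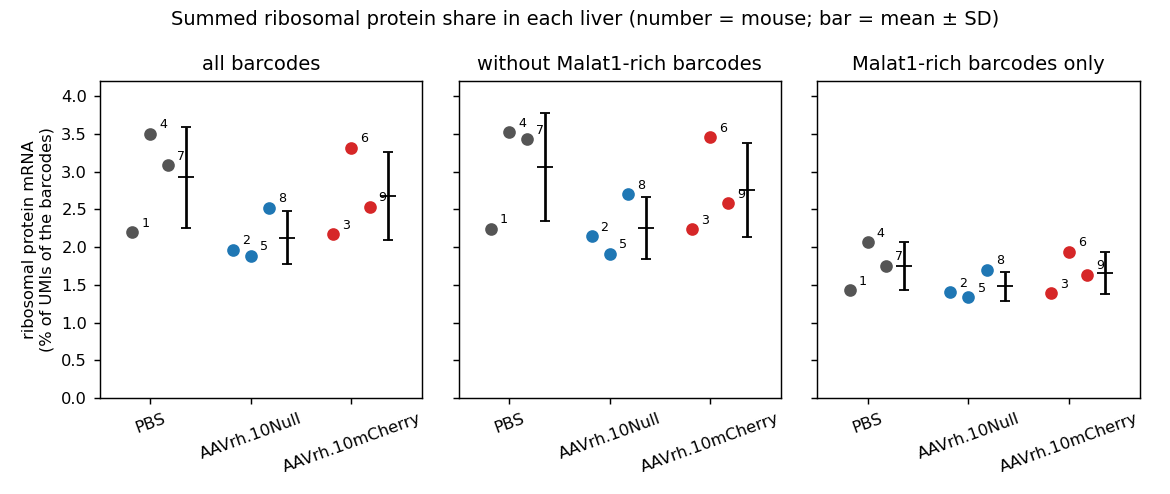
Each point is the summed share of the ribosomal protein genes in 1 liver, in % of the UMIs of the barcodes named above the panel, with its mouse number, and the bars give the mean ± SD of 3 livers. The groups overlap in each panel, and the Malat1-rich barcodes of every liver lie lower (1.34 to 2.07%).

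Gene by gene, AAVrh.10Null minus PBS lay below 0 for all 77 genes tested, against 48.0% of the 11321 genes tested. Their median log2 change was -0.45, and that of all genes was 0.02. No gene of the 77 passed edgeR's quasi-likelihood test with Benjamini-Hochberg adjustment at 0.05, where 0.0% of all genes were called lower and 0.00883% higher. At an unadjusted p under 0.05, 11 of the 77 were lower, against 2.98% of all genes, and DESeq2 called 0. All AAVrh.10Null livers lay below all PBS livers for 13 genes, against 6.87% of all genes. Many of the 77 genes were highest or lowest in the same livers, as counted below. They are therefore not independent results, here or in the other group comparisons.

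Rps9, a small subunit protein, was at 726, 839 and 865 CPM in PBS mice 1, 4 and 7 and at 469, 594 and 524 in AAVrh.10Null mice 2, 5 and 8. The groups did not overlap, and the log2 change was -0.61 (SE 0.23, edgeR adjusted p = 0.294). Rps7, also of the small subunit, was at 269, 373 and 326 after PBS and at 185, 199.8 and 239 after AAVrh.10Null (log2 change -0.63, edgeR adjusted p = 0.305). Rpl13, of the large subunit, was at 669.5, 827 and 954 after PBS and at 415, 598 and 549.7 after AAVrh.10Null (log2 change -0.64, edgeR adjusted p = 0.316). These 3 had the smallest p-values, and none of their groups overlapped.

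The other 8 genes with an unadjusted p under 0.05 were Rps19, Rps23, Rpl9, Rpl13a, Rpl19, Rpl27, Rpl29 and Rpl35. Rpl35 had the lowest value of the 77, a log2 change of -0.97, but its groups overlapped: 101, 199 and 429 CPM in PBS mice 1, 4 and 7 and 111, 97.8 and 147 in AAVrh.10Null mice 2, 5 and 8. With no filter on low counts it was the 1 gene past the test (edgeR adjusted p = 0.0444). Rpsa had a log2 change of -0.26, Rplp0 of -0.33, Rplp1 of -0.26 and Rplp2 of -0.45, and none of these 4 passed. Without Malat1-rich barcodes all 77 again lay below 0 (54.1% of all genes), with a median of -0.42. Then 0 passed (0.0% of all genes lower, 0.0092% higher), 10 had an unadjusted p under 0.05 (2.38%) and 9 did not overlap (7.14%).

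Other values moved with this comparison. The summed level of 14 T and NK cell markers was 11.0, 173 and 189 CPM in PBS mice 1, 4 and 7, 55.2, 17.9 and 33.6 in AAVrh.10Null mice 2, 5 and 8, and 37.0 to 71.4 after AAVrh.10mCherry. All 11 of these markers that were tested lay below 0 for AAVrh.10Null minus PBS. Also below 0 were 7 of 7 stellate cell, 9 of 10 Kupffer cell, 10 of 12 endothelial and 3 of 3 B cell markers. Of the hepatocyte markers 8 of 10 lay below 0 too (median -0.24), while 4 of 5 red cell genes lay above 0. None of these markers passed. Barcodes with markers of a non-parenchymal cell type made up 5.91, 7.23 and 9.45% of the kept barcodes in PBS mice 1, 4 and 7 and 4.53, 2.65 and 2.34% in AAVrh.10Null mice 2, 5 and 8, which do not overlap. Malat1 ranged from 6064 to 23010 CPM after AAVrh.10Null and from 2769 to 15944 after PBS, and mitochondrial transcripts from 8.26 to 17.3% and from 3.43 to 9.41% of UMIs. Without barcodes that held 2 or more markers of a non-parenchymal cell type the median of the 77 genes was -0.43 and the share difference -0.704 percentage points. Without mouse 4 the median was -0.31, with 63 genes below 0. Barcodes that ended in an undetermined base made up 0.0972% of all barcodes of mouse 2, 0.278% of mouse 8 and 4.83% of mouse 7, and 25.4 to 27.5% in the other livers. Without these 3 livers, where mouse 5 alone stands for AAVrh.10Null and is assumed to vary like the other groups, the median was -0.66 with 77 genes below 0, and 0 passed.

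AAVrh.10mCherry minus PBS lay nearer to 0. The median log2 change of the 77 genes was -0.13, that of all genes was 0.16, and 58 of the 77 lay below 0, against 35.0% of all genes. None passed the test in either direction, nor did any of all genes (0.0% lower, 0.0% higher), and 0 of the 77 had an unadjusted p under 0.05 (0.786% of all genes lower, 8.74% higher). DESeq2 also called 0. Only Rpl29, a large subunit gene, had groups that did not overlap, against 2.37% of all genes lower and 14.4% higher: 83.5, 124 and 109.8 CPM in PBS mice 1, 4 and 7, and 65.1, 82.9 and 72.5 in AAVrh.10mCherry mice 3, 6 and 9.

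The highest values of this comparison were Rps6 (0.24), whose phosphorylation is a common readout of mTOR activity, and the large subunit genes Rpl5 (0.16), Rpl10a (0.13) and Rpl7 (0.12). The median depended on the scaling and on single livers. It was -0.26 with TMM factors, where that of all genes was 0.02, and -0.03 without mitochondrial transcripts in the library size, where that of all genes was 0.25. It was 0.02 without mouse 3 and 0.04 without mouse 4. Without mice 2, 7 and 8 it was -0.11. Without Malat1-rich barcodes it was -0.15 with 61 genes below 0 (37.3% of all genes). Then 0 passed (0.0% of all genes in each direction) and the groups of 0 genes did not overlap (2.43% lower, 10.8% higher). Over all barcodes, 10 of 10 Kupffer cell, 9 of 11 T and NK cell and 3 of 3 B cell markers lay below 0. So did 9 of 10 hepatocyte markers, while 11 of 12 endothelial markers and 4 of 5 red cell genes lay above 0. Stellate cell markers were split, with 3 below and 4 above 0, and 0 of these markers passed.

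Between the vectors, all 77 genes lay above 0 for AAVrh.10mCherry minus AAVrh.10Null, while 38.2% of all genes lay below 0. The median was 0.34, and that of all genes was 0.11. None passed the test (0.0% of all genes called higher, 0.00883% lower), and 5 had an unadjusted p under 0.05: Rps6, Rps23, Rpl5, Rpl14 and Rpl19, against 5.64% of all genes. DESeq2 called 0. The groups did not overlap for 7 genes, against 12.0% of all genes, a share that the 7 of 77 do not exceed. Of the cell type markers, 12 of 12 endothelial (median 0.67), 7 of 7 stellate cell (0.68) and 10 of 11 T and NK cell markers (0.65) also lay above 0. Below 0 lay 9 of 10 Kupffer cell (-0.42) and 3 of 3 B cell markers (-1.04) and 5 of 5 red cell genes (-0.61). Hepatocyte markers were split, with 5 above and 5 below 0 (-0.01). None of these markers passed, and their part in the result was not tested. Without mice 2, 7 and 8, with mouse 5 alone for AAVrh.10Null, the median of the 77 genes was 0.57, with 2 below 0, and 0 passed.

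Rps6 was at 202, 336 and 265 CPM in AAVrh.10Null mice 2, 5 and 8 and at 376, 629 and 379 in AAVrh.10mCherry mice 3, 6 and 9. These groups did not overlap, and the log2 change was 0.79 (SE 0.30, edgeR adjusted p = 0.607). In the PBS livers of mice 1, 4 and 7 Rps6 was at 421, 479 and 257, which spans both. Rps23 had a log2 change of 0.69 and Rpl19 of 0.62 (edgeR adjusted p = 0.607 each). Without Malat1-rich barcodes the median was 0.31, Rplp1 and Rps15 lay at -0.01 as the 2 genes below 0 (32.2% of all genes), 0 passed (0.0% higher, 0.0092% lower) and 8 did not overlap (12.7%). The 3 comparisons share their groups in pairs, so their values are not independent of each other.

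**Figure D2:**
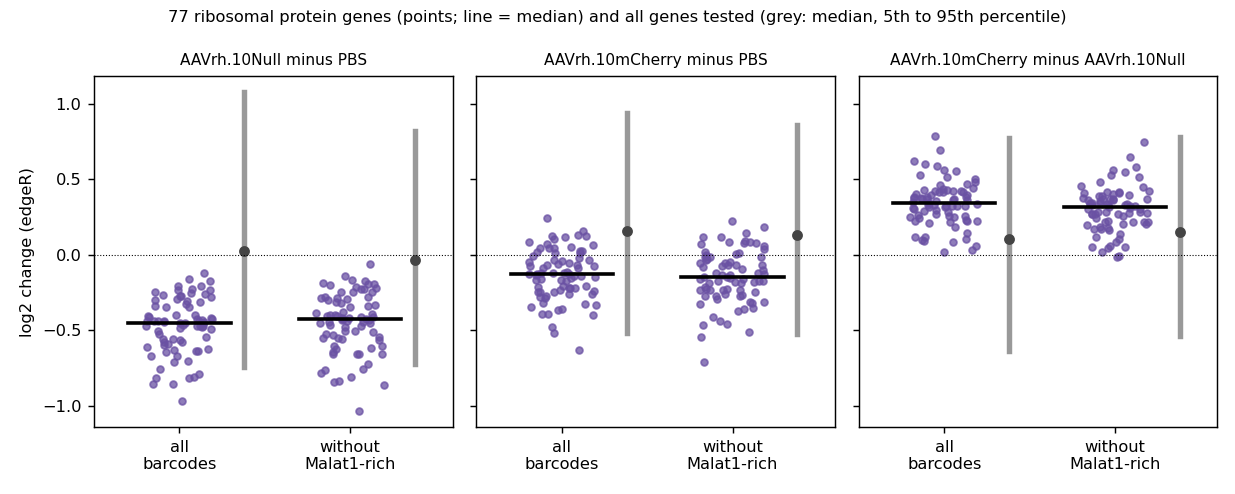
Each point is the log2 change (edgeR) of 1 of 77 ribosomal protein genes between the groups named above a panel, for all barcodes and without Malat1-rich ones; the line is their median, and grey gives the median and the 5th to 95th percentile of all genes tested. The medians over all barcodes are -0.45, -0.13 and 0.34, and no gene passed the test.

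Levels also differed between livers of 1 group, and most in the shortest transcripts. Of the 74 genes with a mean of at least 100 CPM, mouse 4 had the highest level for 35, mouse 7 for 21, mouse 6 for 17 and mouse 1 for 1. Mouse 5 had the lowest for 27, mouse 2 for 23, mouse 1 for 12, mouse 7 for 9, mouse 3 for 2 and mouse 9 for 1. The 6 genes with a median transcript length under 400 nt (Rps27, Rpl38, Rpl36, Rps28, Rps29 and Rps21) had a highest level 4.29 to 10.3 times the lowest, with a median of 7.61. The 68 others ranged from 1.54 to 5.58 times, with a median of 2.30. Without mouse 7 the 6 short genes ranged from 3.48 to 5.97 times. These bins were chosen after the levels had been seen, so the difference is a description.

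Rps28, a small subunit protein, was at 26.6, 133 and 274.6 CPM in PBS mice 1, 4 and 7. It was at 91.2, 34.0 and 108 in AAVrh.10Null mice 2, 5 and 8, and at 45.2, 129.8 and 159 in AAVrh.10mCherry mice 3, 6 and 9. Rpl38, of the large subunit, was at 34.7, 179.8 and 305 in mice 1, 4 and 7, at 124, 40.2 and 134 in mice 2, 5 and 8, and at 65.4, 131 and 190.3 in mice 3, 6 and 9. Both were low in mice 1, 3 and 5 and highest in mouse 7, so 1 liver of each group was low and the groups overlapped.

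The summed level of the 6 short genes was 0.0673 times that of the 22 genes of 1000 nt or more in mouse 1, 0.0981 in mouse 3 and 0.0931 in mouse 5. It was 0.169 to 0.223 in mice 2, 4, 6, 8 and 9, and 0.377 in mouse 7. The 22 genes include Rps15a and Rps20, with annotated lengths of 5130 and 3706 nt but coding lengths of 390 and 357 nt. By coding length, 7 of the 10 genes under 300 nt varied more than 4-fold, and 3 of the 64 longer ones did. Without mouse 7 these counts were 4 and 0. Of genes outside the family at this level only 2 were under 400 nt (4.10 and 6.53 times), so whether short transcripts in general varied as much was not tested.

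**Figure D3:**
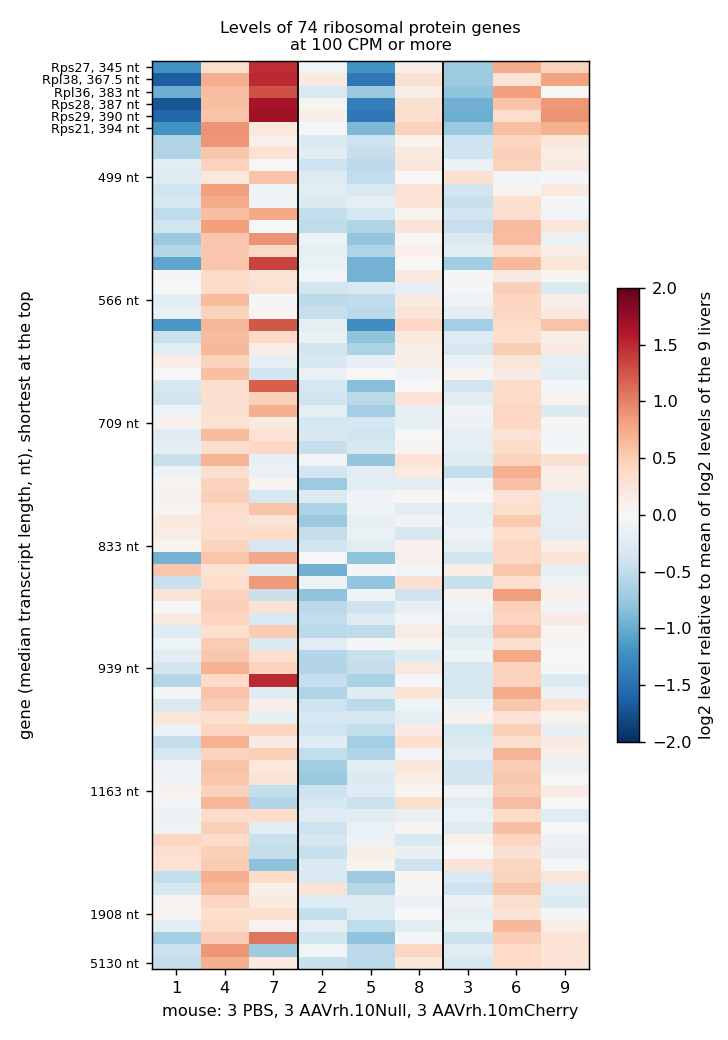
Colour gives the log2 level of each of 74 ribosomal protein genes in each liver relative to the mean of its log2 levels in the 9 livers, with genes ordered by median transcript length (nt), the shortest named, and livers by group. The 6 shortest genes at the top are low in mice 1, 3 and 5, and 5 of them (all but Rps21, highest in mouse 4) are highest in mouse 7, while most longer genes are highest in mice 4 and 6.

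Within each liver, Malat1-rich barcodes held less ribosomal protein mRNA than the other barcodes. Their share was 1.43, 2.07 and 1.76% in PBS mice 1, 4 and 7, 1.40, 1.34 and 1.70% in AAVrh.10Null mice 2, 5 and 8, and 1.39, 1.94 and 1.64% in AAVrh.10mCherry mice 3, 6 and 9. It was lower in 9 of 9 livers, at 0.513 to 0.701 times the share of the other barcodes, and at 0.534 to 0.724 times with Malat1 itself left out of the UMIs. Over bins of the Malat1 share its median over livers was 2.73% in barcodes with under 0.5% Malat1, 2.77% from 0.5 to 1%, 2.12% from 1 to 2%, 1.84% from 2 to 3% and 1.56% at 5% and over. The bins from 2% on were below the bin under 0.5% in every liver with a value.

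**Figure D4:**
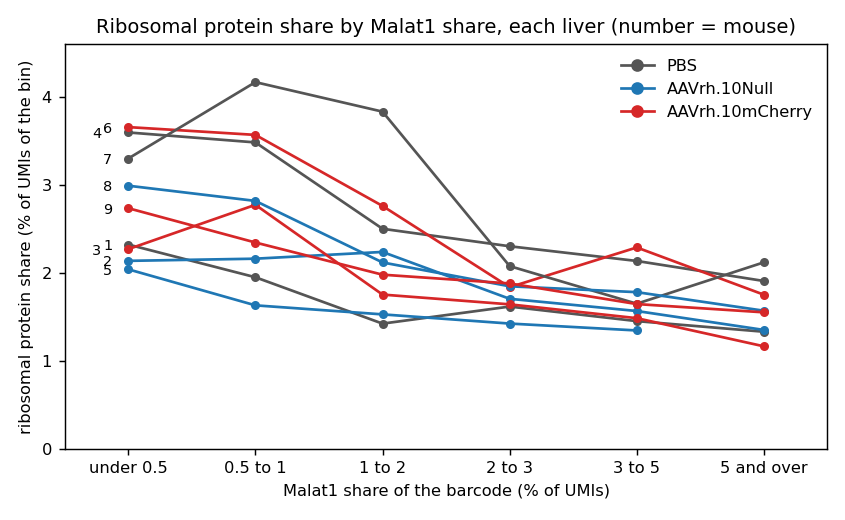
Lines join the summed ribosomal protein share (% of the UMIs of a bin) of 1 liver over barcodes binned by their Malat1 share (% of UMIs), coloured by group, with mouse numbers at the left. All 9 livers are lower at 2 to 3% Malat1 than under 0.5%.

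In edgeR's quasi-likelihood test with the liver as a block and Benjamini-Hochberg adjustment, 76 of 77 genes were lower in Malat1-rich barcodes, against 18.7% of the 7567 genes tested. Their median log2 change was -0.69, and that of all genes was 0.39. TMM factors moved that of all genes to -0.06 and that of the 77 to -1.13, with 77 lower. The lowest values were those of Rps25 (-0.86) and Rps26 (-0.83) of the small subunit and Rpl39 (-0.86) and Rpl23a (-0.84) of the large subunit. The stalk gene Rplp0 (-0.68) lay near the median, and Rplp1 (-0.75), Rpsa (-0.77) and Rplp2 (-0.81) lay below it. In all, 72 genes were lower in every liver.

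Rps25 was at 117 to 226 CPM in Malat1-rich barcodes (median 169.8) and at 209 to 467 in the others (median 307). Rpl10a, of the large subunit, did not pass (log2 change -0.19, edgeR adjusted p = 0.116): it was at 33.3 to 167 (median 95.1) against 80.3 to 180.2 (median 117) and lower in 8 of 9 livers. It had as few as 2 UMIs in the Malat1-rich barcodes of a liver. Rpl13a, with as few as 1 UMI there, was also lower in 8 of 9 livers. Barcodes with much Malat1 also differed in other RNAs: 10 of 10 hepatocyte markers and 5 of 5 red cell genes were lower. Mitochondrial transcripts held 2.32 to 16.5% of their UMIs against 3.45 to 18.6% in the others. This share was lower in every liver except mouse 7, where it was 16.5% against 7.55%. The part of these differences in the result was not tested.

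Of other translation genes in Malat1-rich barcodes, 6 of 6 other ribosomal and associated genes fell, Fau among them (-0.68). Of 19 other RNAs known to carry a TOP motif, 14 fell and 3 rose. Their full list names Gas5 and Snhg1, which encode no protein, beside mRNAs. Of 50 initiation and elongation factors, 19 fell and 12 rose. These lists share genes: Eef1a1, Pabpc1 and several other factors stand in both. Eef1a1, which brings aminoacyl-tRNA to the ribosome, fell by 0.64 on the log2 scale. Of 53 genes of ribosome biogenesis, 6 fell and 23 rose, including Taf1a (1.82), a factor of RNA polymerase I, and Utp14a (1.31), which processes small subunit RNA. Of 75 mitochondrial ribosomal protein genes, 45 fell and 7 rose. The background for all genes was 18.7% lower and 50.6% higher. The biogenesis genes lay below both shares, and their median log2 change was 0.33 against 0.39 for all genes.

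Barcodes that held at least 2 markers of 1 cell type, and not of another, were set against barcodes without such markers in the same liver. T and NK cell marker barcodes (11 to 76 in each of 8 livers; mouse 1 had 9 and was left out) had a higher share in each liver. It was 9.16 and 10.4% in PBS mice 4 and 7, 7.12, 4.33 and 13.4% in AAVrh.10Null mice 2, 5 and 8, and 5.37, 10.4 and 6.56% in AAVrh.10mCherry mice 3, 6 and 9. This was 2.31 to 5.47 times the share of the reference barcodes, in 8 of 8 livers. Albumin mRNA in these barcodes was at 40.8 to 72.0% of its level in the reference, so they hold much hepatocyte RNA as well.

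In the edgeR test within livers, 74 of 75 genes were higher in T and NK cell marker barcodes, against 27.5% of the 2224 genes tested (24.7% were lower), with a median log2 change of 1.69 and of -0.03 for all genes. Of these, 63 were higher in every liver. Rps15a (2.70), Rps27 (2.53), Rps13 (2.22) and Rps7 (2.18) of the small subunit and Rpl12 (2.21) of the large subunit had the largest values. Rpl10 (0.92), Rpl28 (0.97) and Rps2 (0.98) had the smallest among those that passed. Rplp0 (1.82), Rplp1 (1.51), Rplp2 (1.92) and Rpsa (1.57) lay between.

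Rps15a, which binds the small subunit RNA, was at 662 to 2763 CPM (median 1568) in T and NK cell marker barcodes and at 162 to 355 (median 248) in the reference. The ranges did not overlap. Rps27 was at 331 to 4035 (median 1979) against 124 to 653 (median 305) and higher in 8 of 8 livers. Its paralog Rps27l was at 0 to 579 (median 416) against 349.6 to 753 (median 487), higher in 3 livers and lower in 5, and did not pass (log2 change -0.39, edgeR adjusted p = 0.0782). It passed as lower with TMM factors (-0.55), without mitochondrial transcripts in the library size (-0.46), with DESeq2 (-0.72), without Malat1-rich barcodes (-0.44) and without mouse 5 (-0.48) or mouse 8 (-0.46).

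The log2 ratio of Rps27 to Rps27l, with 0.5 UMI added to each, was 2.97 ± 1.33 (SD, n = 8) higher in T and NK cell marker barcodes than in the reference, in 8 of 8 livers (exact two-sided sign-flip test, p = 0.0078125, the smallest it allows; adjusted p = 0.0156 over 4 comparisons). It was 0.69 ± 0.53 higher in endothelial marker barcodes, in 8 of 9 livers (exact sign-flip p = 0.0078125, adjusted p = 0.0156), and 0.86 ± 0.52 in Kupffer cell marker barcodes, in 7 of 8 livers (exact sign-flip p = 0.015625, adjusted p = 0.0208). In Malat1-rich barcodes the shift was 0.16 ± 0.34 in 6 of 9 livers (exact sign-flip p = 0.191, adjusted p = 0.191). In T and NK cell marker barcodes mouse 7 held 21 Rps27 and 0 Rps27l UMIs, so the 0.5 UMI added sets the size of its ratio. Mouse 5 held 4 and 7 there, and mouse 3 held 14 and 6. The pair was chosen after its values had been seen, and reads shared by the paralogs could be split by the authors' counting.

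Endothelial marker barcodes (25 to 186 in each of 9 livers) had a share of 2.20 to 5.26%, 1.05 to 1.88 times the reference and higher in 9 of 9 livers. Of 75 genes, 42 were higher, against 23.3% of the 2979 genes tested (13.2% were lower), with a median of 0.28 and of 0.06 for all genes. The largest values were those of the small subunit genes Rps27 (0.73), Rps21 (0.61), Rps29 (0.60) and Rps15a (0.60). Rplp1 (0.32) and Rplp2 (0.28) passed, Rpsa (0.16) and Rplp0 (0.10) did not, and Rpl10 (-0.08) was the 1 gene below 0. The count fell to 28 without mouse 8, to 14 with TMM factors and to 12 with DESeq2, 1 of these lower (Rpl10, -0.26).

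Kupffer cell marker barcodes (16 to 66 in each of 8 livers; mouse 7 had 2 and was left out) had a share of 2.52 to 4.96%, 1.16 to 1.93 times the reference in 8 of 8 livers. Of 77 genes, 54 were higher, against 13.1% of the 8143 genes tested (4.58% were lower), with a median of 0.59 and of 0.19 for all genes. Rps29 (1.13), Rps15a (1.10), Rpl39 (1.03) and Rps28 (1.02) had the largest values, Rplp1 (0.86) and Rplp2 (0.87) passed, and Rpl13a (-0.23), Rpl28 (-0.11) and Rps27l (-0.05) lay below 0 and did not pass. This result depended on the scaling: with TMM factors the median of all genes was -0.36, that of the 77 was -0.01, and 2 were higher and 5 lower. DESeq2 called 24 higher. All 10 hepatocyte markers were lower in the T and NK cell, the endothelial and the Kupffer cell marker barcodes.

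Not every cell type had a higher share. Stellate cell and fibroblast marker barcodes (8 livers with at least 10) were at 0.883 to 1.23 times the reference (median 1.02), higher in 6 livers and lower in mice 6 and 8. B cell marker barcodes reached 10 in 3 livers and were at 2.30 to 3.25 times the reference there. No test by gene was run for these 2 types.

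**Figure D5:**
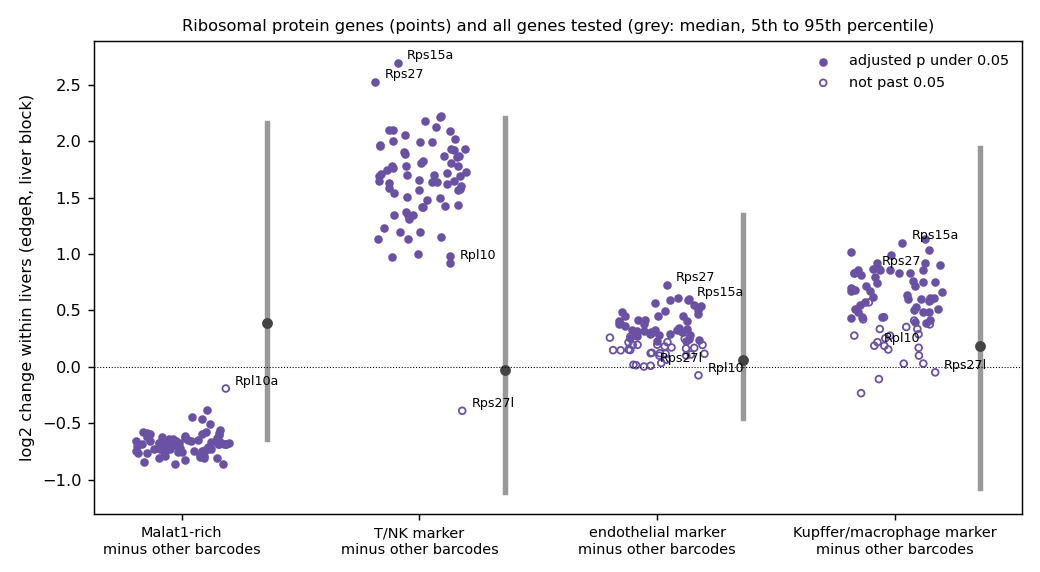
Each point is the log2 change (edgeR, liver as a block) of 1 ribosomal protein gene between the barcodes named on the x axis and the other barcodes of the same livers; filled points passed the adjusted p of 0.05, and grey gives the median and the 5th to 95th percentile of all genes tested. Rpl10a stands apart in Malat1-rich barcodes (-0.19) and Rps27l in T and NK cell (T/NK) marker barcodes (-0.39).

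Other translation genes moved in T and NK cell marker barcodes too. Of 34 initiation and elongation factors 23 rose and 0 fell, with Pabpc1, the poly(A)-binding protein, at 1.85. Of 13 genes of ribosome biogenesis 11 rose, with the nucleolar proteins Npm1 at 2.03 and Ncl at 1.74, and of 17 other TOP RNAs 16 rose. The lists share genes, so these counts are not separate results. Pabpc1, Npm1 and several elongation factors also stand among the other TOP RNAs. Of 39 mitochondrial ribosomal protein genes 3 rose and 0 fell. Of all genes, 27.5% rose and 24.7% fell, so the share of the mitochondrial list that rose was below that background. In endothelial marker barcodes 7 of 41 factors, 5 of 16 biogenesis genes and 5 of 17 other TOP RNAs rose, against 23.3% of all genes. In Kupffer cell marker barcodes 7 of 51, 4 of 55 and 6 of 19 did, against 13.1%. The endothelial factors and the Kupffer cell biogenesis genes were below these backgrounds.

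Between the groups of mice 0 genes of these lists, some of which share genes, passed. For AAVrh.10Null minus PBS the median was -0.16 for the 52 initiation and elongation factors (39 below 0) and -0.22 for 20 other TOP RNAs (18 below 0). It was -0.22 for 77 mitochondrial ribosomal protein genes (71 below 0) and 0.08 for 60 biogenesis genes (27 below 0). For AAVrh.10mCherry minus PBS the medians in this order were 0.15, 0.02, -0.02 and 0.29, and for AAVrh.10mCherry minus AAVrh.10Null they were 0.29, 0.29, 0.18 and 0.15.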

How the data were processed

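The deposited tables hold raw counts of UMIs per gene and barcode, 1 table per liver, as the authors made them. Per the submitters' processing notes the build was mm10 and Seurat was used, without a version, and the deposited readme names bcl2fastq 2.19. The aligner, the annotation and the choice of barcodes are not given in the sources used here.

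UMIs of barcodes with at least 200 genes were summed per liver and scaled to all their UMIs. Groups were compared with edgeR 4.0.16 in R 4.3.3 (filterByExpr, quasi-likelihood test, library size without further factors, 9 livers in 1 fit, Benjamini-Hochberg adjustment over all genes, threshold 0.05). Tests within livers added the liver as a block, were chosen after seeing the data, and used livers with at least 10 marker barcodes. The code was tested on simulated data. DESeq2 1.42.0, TMM and other filters were the alternatives. Python 3.11.15 with numpy 2.4.6, scipy 1.17.1, pandas 2.3.3 and matplotlib 3.10.9 gave sums and plots. Transcript and coding lengths are medians over the coding transcripts of a gene tagged as principal in the basic GENCODE annotation of GRCm38. Where none was tagged, all its coding transcripts were used.

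The genes and lists were chosen with earlier results of these data known. Named genes were the stalk genes, Rpsa, the 5 most abundant Rps and Rpl genes, the 3 smallest p-values per direction, up to 4 of opposite sign, and paralog pairs. Values for Rpl35, for the largest changes and for the short genes were singled out after they had been seen. Results for some genes are not reported here.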

Additional observations from a re-analysis of the deposited data

Results flagged for a closer look

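Rps27l in T and NK cell marker barcodes lay on opposite sides of the reference in mice of different groups, a difference that was not tested. It was higher than in the reference barcodes in all 3 AAVrh.10Null livers (415 against 410.3 CPM in mouse 2, 579 against 349.6 in mouse 5 and 510.1 against 486 in mouse 8). It was lower in both PBS livers (416 against 576 in mouse 4 and 0 against 753 in mouse 7) and in all 3 AAVrh.10mCherry livers (196 against 617 in mouse 3, 472 against 475 in mouse 6 and 323 against 488 in mouse 9). The mean difference was -131 CPM over the PBS and AAVrh.10Null livers and -55.2 over the AAVrh.10Null and AAVrh.10mCherry livers. Each of these means pools groups of opposite sign. These values rest on 0 to 42 Rps27l UMIs per liver. Mice 2, 6 and 8, with 13, 14 and 12 UMIs, lay so close to their reference that their direction is uncertain.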

How the results depend on the processing

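For the 6 group comparisons the number of ribosomal protein genes past the test was 0 in each alternative, including each left-out liver (0 to 0), except that AAVrh.10Null minus PBS over all barcodes gave 1 with no filter on low counts. Leaving out single livers gave share differences of -1.16 to -0.512 percentage points for AAVrh.10Null minus PBS (-1.22 to -0.582 without Malat1-rich barcodes), -0.616 to 0.0363 for AAVrh.10mCherry minus PBS (-0.717 to -0.046) and 0.227 to 0.800 for AAVrh.10mCherry minus AAVrh.10Null (0.159 to 0.766). Genes past the test numbered 74 to 76 in Malat1-rich, 74 to 76 in T and NK cell, 28 to 43 in endothelial and 49 to 55 in Kupffer cell marker barcodes. With TMM factors the endothelial count was 14 and the Kupffer cell count 7, and with DESeq2 they were 12 and 24. In Kupffer cell marker barcodes TMM factors turned Rpsa to -0.14 and Rplp0 to -0.19; the cause was not tested. All alternatives within livers, and leaving out mice 2, 7 and 8 in the comparisons with AAVrh.10Null, were chosen after seeing the data. No paired analysis of the groups was run, because the mouse numbers are not shared between the groups and the labels name no batch. Mouse 7 held 291338 UMIs, which limits the precision of its levels.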
